A study of Mus musculus with 16 samples.

Results

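Mitochondrial complex I was examined through the nuclear genes that encode its structural subunits. A gene was a member if its symbol began with Ndufa, Ndufb, Ndufc, Ndufs or Ndufv and was neither an assembly factor (Ndufaf genes), Ndufa4, Ndufa4l2 nor a pseudogene. The rule found 36 genes among the 12012 in the deposited table. By textbook placement, 10 belong to the NADH-binding submodule, 6 to the Q-binding submodule and 19 to the membrane arm, and Ndufab1 sits in both arms. The NADH-binding members are Ndufv1, Ndufv2, Ndufv3, Ndufs1, Ndufs4, Ndufs6, Ndufa2, Ndufa6, Ndufa7 and Ndufa12. The Q-binding members include Ndufs3, Ndufs7, Ndufs8, Ndufa5 and Ndufa9. The membrane arm holds Ndufa1, Ndufa3, Ndufa8, Ndufa10, Ndufa11, Ndufa13, Ndufc1, Ndufc2, Ndufs5 and the Ndufb subunits 2 to 11 (Ndufb2, Ndufb3, Ndufb4, Ndufb5, Ndufb6, Ndufb7, Ndufb8, Ndufb9, Ndufb10 and Ndufb11).

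Complex I is the entry point of the respiratory chain. Its NADH-binding submodule strips electrons from NADH through a flavin, iron-sulfur clusters carry them to the Q-binding submodule, where ubiquinone is reduced, and the membrane arm pumps protons. Most of its subunits are made in the cytosol and imported, while 7 hydrophobic subunits of the membrane arm are encoded by mitochondrial DNA. In T cell leukaemia driven by NOTCH, cells are known to rely on oxidative phosphorylation, and the title of the series links the supply of valine to the amount of this complex.

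The cells were T cell acute lymphoblastic leukaemia (T-ALL) carrying NOTCH-delta E, an active form of the receptor, grown as secondary transplants in C57BL/6 mice. The host mice had eaten, for 3 weeks, a valine-proficient control diet (8 g/kg), a valine-deficient diet (0 g/kg), or the deficient diet with 0.4 or 0.8 g/kg valine. The doses follow the sample characteristics, since the protocol describes the intermediate doses per litre of drinking water. GFP-positive leukaemic cells from spleen gave a total RNA library and a library of ribosome-protected fragments (RPF), pieces of mRNA covered by ribosomes. With a T-ALL 2 and a T-ALL 3 sample on every diet, the fractions held 8 libraries each and the series 16. Nothing in the labels says whether the numbers stand for separate tumours or separate animals. The p-values therefore cover the spread among the samples at hand, which may be technical.

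Depth set the limits. Levels are in FPKM, fragments scaled by gene length and library size. Reads recovered from the steps of these values numbered from 41848 up to 205545 in the RPF libraries, and in total RNA from 364685 up to 1269364. The 36 subunits took 114 to 466 of these reads in an RPF library, with a median of 2 to 11.5 reads per gene, and 1208 to 4047 in a total RNA library. All 36 passed the filter of a mean FPKM of at least 1 in both fractions. The 11 T cell markers in the table made up between 30.7 and 42.4 per 10000 reads in RPF and between 40.9 and 50.6 in total RNA, with at most 1 of the 11 at 0 in a library. Neutrophil markers (11 genes) were high at 0 g/kg, with 27.6 (T-ALL 2) and 3.41 (T-ALL 3) per 10000 RPF reads against 0.239 to 0.420 at 8 g/kg, and 2.22 to 4.72 against 0.165 to 0.181 in total RNA. Erythroid markers (10 genes) ran the other way, with 0.622 to 2.53 per 10000 RPF reads at 0 g/kg against 5.02 to 17.8 at 8 g/kg. Their part in the results below was not tested. In bulk samples, fewer cells of a type and less RNA per cell cannot be told apart.

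In total RNA, per gene length, the subunits spanned from 197 ± 30.4 FPKM for Ndufa2, an NADH-binding accessory subunit, to 7.43 ± 3.24 FPKM for Ndufb2, a small membrane-arm subunit (means ± SD over 8 libraries). Ndufa6 (188 ± 28.0 FPKM) and Ndufb9 (183 ± 23.6 FPKM), both of which belong to the family that binds acyl carrier protein, followed Ndufa2, and these 3 did not differ beyond their spread. Ndufb10 came next at 142 ± 19.6 FPKM, ahead of Ndufv1 at 122 ± 12.4 FPKM, the subunit that holds the flavin site. From Ndufv1 down to Ndufb8 (70.6 ± 10.2 FPKM) neighbours in the order differed by less than the larger of their SDs. Below them came Ndufa5, Ndufs4 and Ndufs1 (39.0 to 55.3 FPKM), and the lowest were Ndufb5, Ndufab1, Ndufb7, Ndufa11, Ndufc1 and Ndufb2 at means of 7.43 to 30.3 FPKM. This order is not one of read numbers. FPKM fell with the gene length that the values imply (Spearman rho = -0.61 over 36 subunits), taking recovered reads as the library total. Ndufb7 had 644 total RNA reads at an implied length of 4051 bases, and Ndufa6 had 613 at 511 bases. Whether these lengths match the transcripts present was not tested. The medians of the submodules were close together at 88.6 FPKM (NADH-binding), 93.5 FPKM (Q-binding) and 83.8 FPKM (membrane arm).

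**Figure D1:**
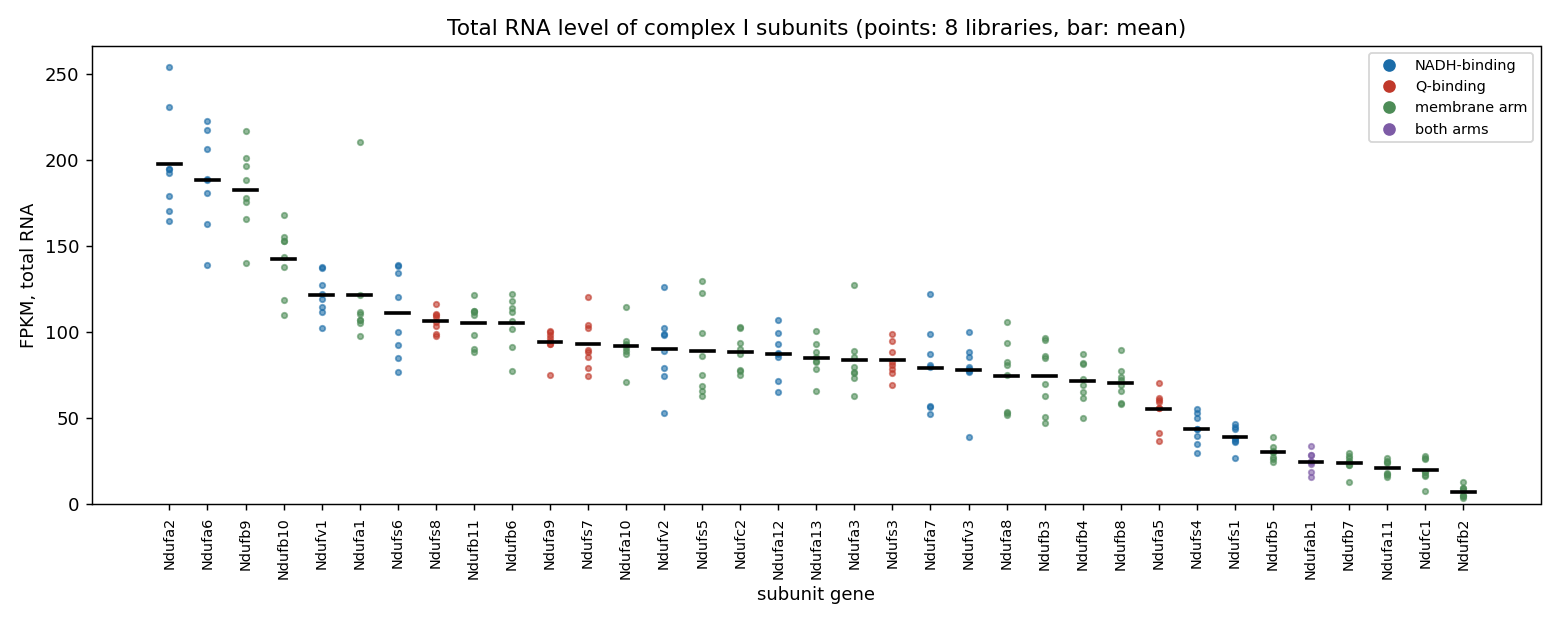
Total RNA level of 35 subunits in FPKM (vertical axis), ordered by the mean (bar), with a point for each of the 8 libraries and colours for the submodules. The order runs from Ndufa2 at 197 FPKM to Ndufb2 at 7.43 FPKM, and the submodules are interleaved.

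The promoters were read from RefSeq (GRCm38.p6), which matched all 36 symbols and held a promoter entry for 32. Ndufa2, Ndufb9 and Ndufs1 are among those without one. Nuclear respiratory factor 1 (NRF1) is a known activator of nuclear genes for the respiratory chain. Its motif (GCGCA, any base, then GCGC), searched on both strands from 250 bases before to 50 after the gene start, was in 7 of 32 subunit promoters (21.9%) and in 7.17% of 17491 protein-coding genes. The holders were Ndufa11, Ndufa5, Ndufa6, Ndufa8, Ndufb4, Ndufs5 and Ndufs6. The YY1 motif, searched as AAGATGGC, was also in 7 of 32 (21.9%) against 3.57%, namely in Ndufa3, Ndufa9, Ndufb8, Ndufc1, Ndufs4, Ndufs6 and Ndufs7. This form of the YY1 motif was chosen after a longer form had been counted, which fewer of the subunit promoters held. The ETS motif CCGGAAGT was in Ndufs3 alone (3.13% against 5.69%) and CCAAT was in 10 (31.3% against 42.3%). A match describes the letters only. The 30-base windows below are the NRF1 matches that, with 10 bases on each side, lie wholly before the gene start, shown because NRF1 is the factor best known for this group of genes. Each is given 5′ to 3′ on the strand of its gene, with the 10-base match in capitals. The match of Ndufa8 reads as the motif on the opposite strand.
Ndufa11, chr17:56717692-56717721, plus strand: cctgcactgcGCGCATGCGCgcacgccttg
Ndufa5, chr6:24527697-24527726, minus strand: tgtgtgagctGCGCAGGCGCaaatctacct
Ndufa8, chr2:36049349-36049378, minus strand: ctagagcagtGCGCTTGCGCgtcgctggag
Ndufs5, chr4:123718265-123718294, minus strand: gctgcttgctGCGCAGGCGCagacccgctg
Ndufb4, chr16:37654371-37654400, minus strand: cctcatatccGCGCAGGCGCagatgtgcgc
Ndufb4, chr16:37654428-37654457, minus strand: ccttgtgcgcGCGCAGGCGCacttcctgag
Ndufb4, chr16:37654540-37654569, minus strand: gagaagcagtGCGCACGCGCagaatacgcg
Ndufb4 is the only one of these 5 genes with 3 such windows. RefSeq also lists Ndufb4b and Ndufb4c, so the reads of Ndufb4 are uncertain where copies share sequence.

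Over the 4 diets, fewer ribosome footprints per mRNA read were found on most of these subunits than on the median gene. Summed over the 8 libraries of each fraction, 1844 RPF reads stood against 20028 total RNA reads of the 36 genes. That is 9.21 RPF reads per 100 total RNA reads, against 12.5 for all genes summed. The median subunit had 9.10 and the median gene 13.0, and 30 of 36 subunits lay below the median gene. In the fit of RPF minus total RNA over 8 library pairs, centred on the median gene, 25 subunits were lower and 11 higher, with a median log2 value of -0.25. That median ran from -0.34 (without T-ALL 3 at 0.8 g/kg) to -0.0926 (without T-ALL 2 at 0.4 g/kg) when 1 library pair was left out, and was -0.00587 with a pseudocount of 0.1 and -0.50 with voom. Related genes were low too, with medians of -0.44 for nuclear subunits of complex IV, -0.33 for assembly factors and -0.20 for complex V. Complexes III (0.18) and II (0.62) lay above the median gene. A difference between these sets was not tested.

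Past the limma test (Benjamini-Hochberg adjusted p under 0.05 over 9361 genes) were 5 of 36 subunits, or 4 lower and 1 higher. Of all genes tested 18.8% passed, 6.22% lower and 12.6% higher. Ndufa6 had the lowest ratio, with 15 RPF reads against 613 total RNA reads, or 2.45 per 100. Its RPF values ran from 0 through a median of 32.3 to 79.0 FPKM, while its total RNA values ran from 139 through 189 to 222 FPKM. T-ALL 2 at 0 and at 0.4 g/kg had no RPF reads of this gene. Through the pseudocount these pairs stood at -8.04 and -8.48 on the log2 scale relative to the median gene, while the median pair stood at -2.12. The 8 pairs were all below the median gene, and the log2 value was -3.23 ± 0.81 (adjusted p = 0.0273, limma), where ± gives the SE of every log2 value here and below. With 1 library pair left out the value was -4.14 to -2.36, and it passed in 2 of 8 such fits (without T-ALL 3 at 0 or at 0.4 g/kg). Ndufa6 did not pass with a pseudocount of 0.1 (adjusted p = 0.0678, limma) or at equal depth (adjusted p = 0.0560, limma).

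Ndufb5, a membrane-arm subunit, had 20 RPF reads against 564, or 3.55 per 100, and its RPF values ran from 0 through 7.48 to 14.2 FPKM against 24.7, 30.5 and 38.9 FPKM in total RNA. The library at 0, T-ALL 3 at 0.8 g/kg, gave a pair at -5.59 relative to the median gene, while the median pair stood at -1.49. The log2 value of Ndufb5 was -1.76 ± 0.46 (adjusted p = 0.0316, limma), again with all 8 pairs below the median gene. It ranged from -2.28 to -1.27 with 1 pair left out and passed in 1 of 8 such fits (without T-ALL 2 at 0.8 g/kg), and it did not pass with a pseudocount of 0.1 (adjusted p = 0.0909, limma). Ndufv2, which carries an iron-sulfur cluster beside the flavin, had 5.06 RPF reads per 100 and RPF values of 13.7, 28.1 and 64.1 FPKM (lowest, median, highest) against 53.2, 93.8 and 126 FPKM in total RNA. Its log2 value was -1.05 ± 0.24 (adjusted p = 0.0198, limma). The call was lost without T-ALL 3 at 0 g/kg, without T-ALL 2 at 0.4 g/kg and without either pair at 0.8 g/kg, with values of -1.31 to -0.83 over the 8 fits, and also with a pseudocount of 0.1 (adjusted p = 0.0530, limma) and at equal depth (adjusted p = 0.219, limma). Ndufb10, a membrane-arm subunit that faces the intermembrane space, had 43 RPF reads against 694 and RPF values of 36.3, 51.8 and 80.5 FPKM, against 109.8, 148 and 168 FPKM. Its value of -0.79 ± 0.16 (adjusted p = 0.0105, limma) came with the least spread of the 4 low members, and in both Ndufv2 and Ndufb10 the 8 pairs were all below the median gene. Ndufb10 passed in 8 of 8 fits without 1 pair (-0.88 to -0.74) but not at equal depth (-1.11, adjusted p = 0.309, limma).

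Ndufa13, also called GRIM-19 and part of the membrane arm, was the 1 subunit called higher. Its 104 RPF reads stood against 612 total RNA reads, or 17.0 per 100. The RPF values of Ndufa13 were 79.4, 93.5 and 161 FPKM (lowest, median, highest) against 65.6, 84.4 and 101 FPKM in total RNA. All 8 pairs lay above the median gene, with a log2 value of 0.82 ± 0.15 (adjusted p = 0.00782, limma). It passed in 8 of 8 fits without 1 pair (0.69 to 0.91) and at equal depth. The call depends on the scale: it was 0.38 with an adjusted p of 0.165 with voom on recovered reads and 0.23 with an adjusted p of 0.289 without centring, so it was lost in both. Voom called 14 subunits and the uncentred fit (chosen after seeing the data) 16, all of them lower. A pseudocount of 2 called 9 lower and 1 higher, and a pseudocount of 0.1 called 1 lower and 5 higher. The share of all genes called is not given here for these alternatives or those that follow. Their counts therefore do not set the subunits apart from other genes. Without 1 library pair the number past the test was 2 (Ndufa13 and Ndufb10, without T-ALL 3 at 0.8 g/kg) to 7 (without T-ALL 3 at 8 g/kg). Those 7 were Ndufv2, Ndufa13 and Ndufb10 together with Ndufs6, Ndufb8, Ndufa3 and Ndufs5, and did not include Ndufa6 or Ndufb5. Without T-ALL 2 at 0.4 or at 8 g/kg 3 passed. At equal depth 4 passed, Ndufs6, Ndufb5 and Ndufa3 lower and Ndufa13 higher. Without centring the median of all genes is -0.59, so the values above are relative to that shift.

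The other ends of the order were not past the test. Ndufb2 had 20.1 RPF reads per 100 total RNA reads and 1.10 ± 0.34 (adjusted p = 0.0582, limma), with RPF values of 5.76, 10.8 and 15.2 FPKM on a total RNA level of 3.86, 7.01 and 13.3 FPKM. Ndufc1, another small membrane-arm subunit, had 19.1 per 100, with 3.82, 31.6 and 48.5 FPKM in RPF and 7.72, 18.9 and 28.1 FPKM in total RNA. Both were above the median gene in most pairs, 8 of 8 for Ndufb2 and 7 of 8 for Ndufc1. Ndufs6, a zinc-binding subunit of the NADH-binding submodule, had 22 RPF reads in all (5.98 per 100) and a log2 value of -2.36 ± 0.75, and Ndufs5 of the membrane arm had 20 (6.04 per 100) and -2.25 ± 0.87. In RPF, Ndufs6 ran from 0 through 31.8 to 133 FPKM against 77.1, 110.2 and 139 FPKM in total RNA. Ndufs5 ran from 0 through 19.3 to 109 FPKM against 63.1, 80.5 and 129.7 FPKM. Both had 2 RPF libraries at 0. Ndufs1, the iron-sulfur subunit of the NADH-binding submodule, had 18.6 per 100, so core subunits of that submodule spanned from Ndufv2 (5.06) through Ndufv1 (12.4) to Ndufs1.

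**Figure D2:**
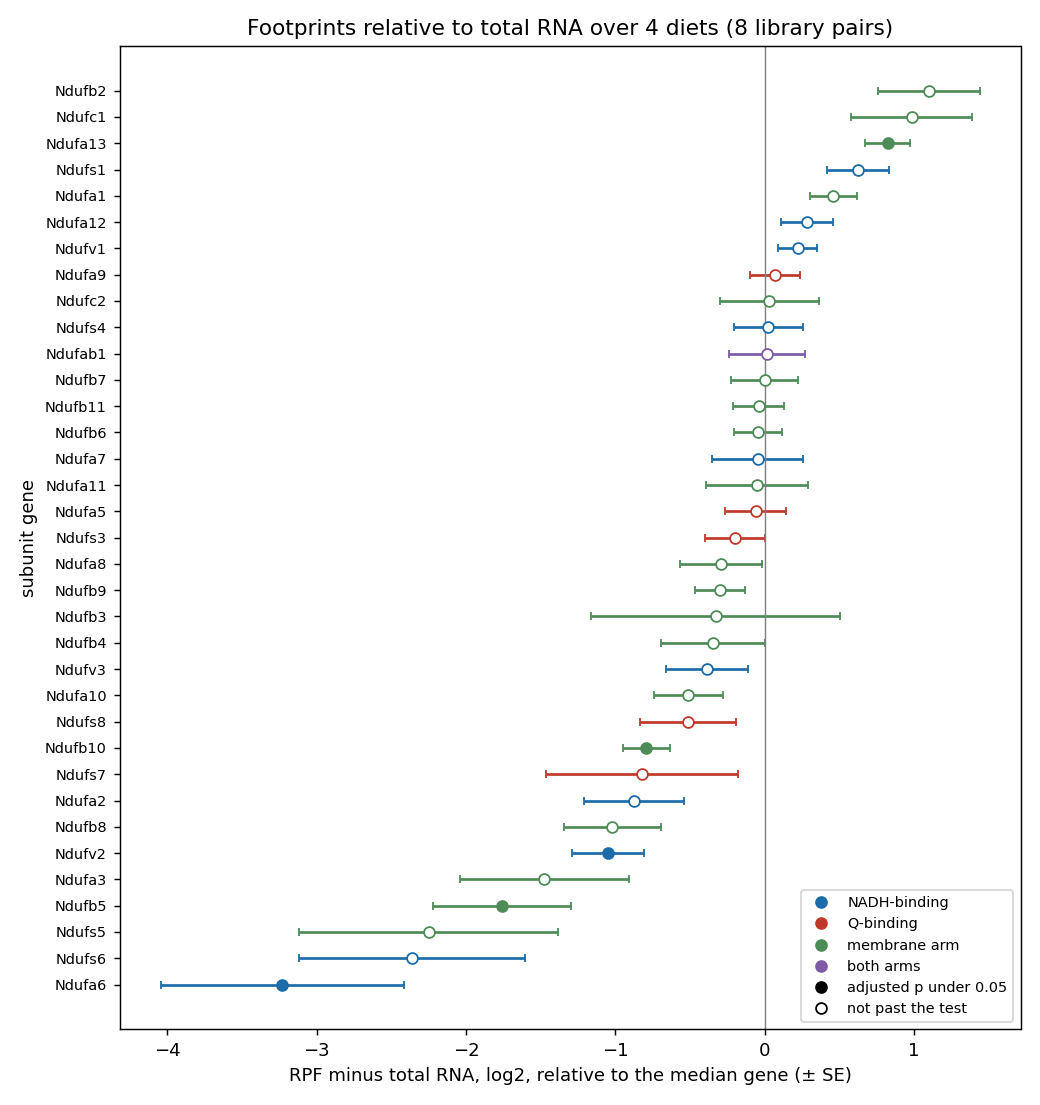
RPF minus total RNA on the log2 scale relative to the median gene (horizontal axis, ± SE over 8 library pairs) for 35 subunits, coloured by submodule, with filled points for an adjusted p under 0.05. Of those shown 24 lie below the median gene, and the 5 filled points are Ndufa13, Ndufb10, Ndufv2, Ndufb5 and Ndufa6.

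The diets were compared first by the share of reads that fell on the subunits. In RPF the share was 24.5 and 18.4 per 10000 reads at 0 g/kg (T-ALL 2, then T-ALL 3), 21.3 and 22.2 at 0.4 g/kg, 22.7 and 25.1 at 0.8 g/kg, and 27.2 and 28.3 at 8 g/kg. In this share of recovered reads, every library on low valine was below both control libraries. In summed FPKM of the subunits this did not hold. There T-ALL 3 at 0.8 g/kg stood at 2233, against 2075 and 2148 at 8 g/kg. The mean share at 0 g/kg was 21.5 ± 4.29 against 27.8 ± 0.733 per 10000 (SD, n = 2), or 77.4% of the control. In total RNA the share was 30.2 and 28.6 per 10000 at 0 g/kg against 31.9 and 32.3 at 8 g/kg, or 91.7%. The 0.4 g/kg libraries (31.8 and 32.3) and the 0.8 g/kg libraries (30.8 and 33.1) overlapped the control. No p is given for a sum over chosen genes. The 95% Wilson intervals of the 2 T-ALL 2 RPF libraries at 0 and 8 g/kg (21.3 to 28.2 and 22.7 to 32.7) overlap. Those of the 2 T-ALL 3 libraries (15.7 to 21.7 and 24.6 to 32.4) do not.

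By submodule, the Q-binding genes had the lowest RPF share relative to the control. Their RPF share was 2.74 and 3.41 per 10000 at 0 g/kg, 4.12 and 4.95 at 0.4 g/kg, 4.43 and 5.21 at 0.8 g/kg, and 7.89 and 5.46 at 8 g/kg. The 2 libraries without valine were the lowest of the 8 and the 2 control libraries the highest. The 95% Wilson intervals at 0 and 8 g/kg do not overlap in T-ALL 2 (1.81 to 4.14 and 5.62 to 11.1). They overlap in T-ALL 3 (2.34 to 4.96 and 3.99 to 7.46). The lower control (5.46) lies within the interval of T-ALL 3 at 0.8 g/kg (4.05 to 6.70). The mean at 0 g/kg was 3.07 ± 0.476 against 6.67 ± 1.72 (SD, n = 2), or 46.1% of the control, on 22 and 27 reads against 33 and 39 reads. In total RNA the same genes held 6.27 and 6.28 per 10000 at 0 g/kg and 6.12 and 6.29 at 8 g/kg, which is 101% of the control. The shares at 0.4 and 0.8 g/kg were 68.0% and 72.2% of the control. Leaving out any 1 of the 6 genes kept both RPF libraries at 0 g/kg below both at 8 g/kg. When T-ALL 2 at 0 g/kg was left out, the Q-binding share was 51.1% of the control, and without T-ALL 3 it was 41.0% (alternatives chosen after seeing the data). Both libraries at 0 g/kg held more neutrophil marker reads than the controls, T-ALL 2 the most, and the part of neutrophils in this share was not tested.

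The NADH-binding share in RPF was 6.45 ± 1.44 per 10000 at 0 g/kg and 7.10 ± 1.25 at 8 g/kg (SD, n = 2), and the 2 groups overlapped. The membrane arm stood at 11.1 ± 3.07 against 13.7 ± 1.07, also overlapping, with 13.3 in T-ALL 2 and 8.97 in T-ALL 3 at 0 g/kg. With T-ALL 3 at 0 g/kg left out, the NADH-binding share was 105% of the control and the membrane share 97.5%, and without T-ALL 2 they were 76.6% and 65.7%, so both rest on T-ALL 3. In total RNA both were lower at 0 g/kg in each library, 9.75 and 7.96 against 10.2 and 10.3 for the NADH-binding genes and 13.5 and 13.6 against 14.8 and 14.7 for the membrane arm.

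**Figure D3:**
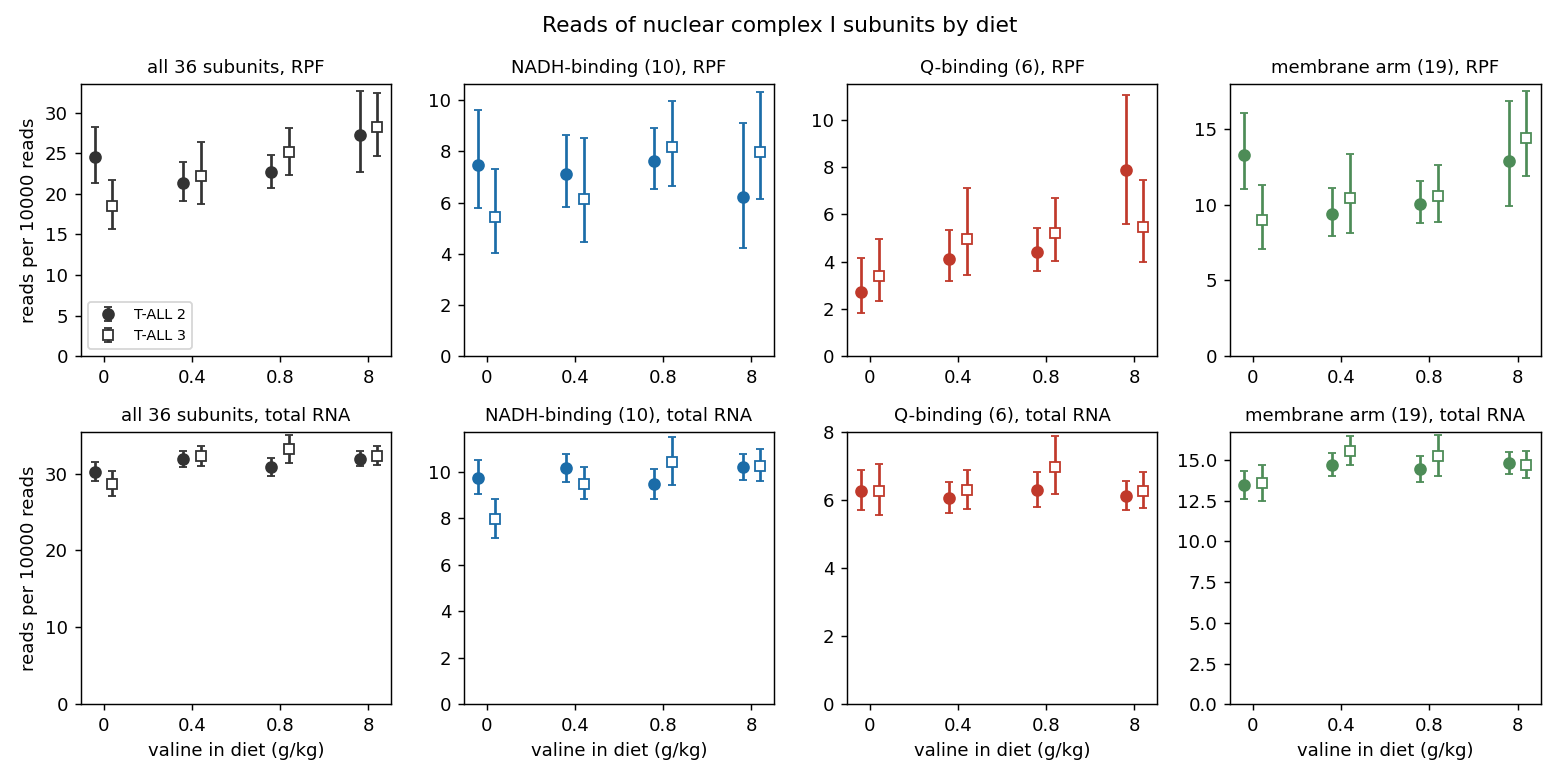
Reads of all 36 subunits and of 3 submodules per 10000 reads (vertical axis, from 0) by valine in the diet (horizontal axis) in RPF (top) and total RNA (bottom), with a point for each library (filled for T-ALL 2, open for T-ALL 3) and its 95% Wilson interval. The Q-binding share in RPF is 7.89 and 5.46 at 8 g/kg and 2.74 and 3.41 at 0 g/kg, while in total RNA it stays between 6.06 and 6.99.

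Gene by gene, no subunit passed the limma test in any comparison of diets. In RPF at 0 against 8 g/kg, 0 of 36 subunits and 0 of 9718 genes (0.0%) had an adjusted p under 0.05, and the lowest adjusted p of a subunit was 0.519. With voom on the recovered reads, 5 genes passed in this comparison, 16 at 0 g/kg against the other 3 diets and 7 in the test of any difference among diets, with 0 subunits among them each time. On the log2 scale 23 subunits were lower and 13 higher, with a median of -0.43, whereas 43.2% of all genes were lower and their median was 0.12. The median of the subunits was -0.13 without T-ALL 3 at 8 g/kg, -0.26 without T-ALL 3 at 0 g/kg and -0.66 without T-ALL 2 at 8 g/kg. An unadjusted p under 0.05 was reached by 3 subunits lower (background 2.22%) and 1 higher (4.95%). The lower ones include Ndufs3 and Ndufs7, core subunits of the Q-binding submodule, and the higher one is Ndufs1. Groups that did not overlap were found for 11 subunits lower (11.7% of all genes) and 3 higher (16.7%).

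Ndufs3, a core subunit of the Q-binding submodule, had the smallest p. Its RPF values were 31.8 and 21.1 FPKM at 0 g/kg, 46.9 and 29.0 at 0.4 g/kg, 27.3 and 72.3 at 0.8 g/kg, and 141 and 106 at 8 g/kg (T-ALL 2 first, here and below). The 6 libraries on low valine all lay below both control libraries. Its total RNA values were 82.7 and 78.4 FPKM at 0 g/kg, 81.0 and 88.2 at 0.4 g/kg, 95.1 and 98.8 at 0.8 g/kg, and 76.1 and 69.3 at 8 g/kg, so that every low-valine library was above both controls. The log2 change at 0 against 8 g/kg was -2.22 ± 0.57 in RPF (adjusted p = 0.519) and 0.15 ± 0.15 in total RNA (adjusted p = 0.897, limma). RPF relative to total RNA, the translational efficiency (TE), differed by -2.36 ± 0.57 (adjusted p = 0.437). None of these passed, and the RPF values rest on 2 to 9 reads per library.

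Ndufs7, which holds the last iron-sulfur cluster before ubiquinone, was read 0 and 5 times at 0 g/kg and 7 and 6 times at 8 g/kg. Its RPF values were 0 and 56.3 FPKM at 0 g/kg, 28.5 and 30.8 at 0.4 g/kg, 92.2 and 76.9 at 0.8 g/kg, and 150.1 and 75.3 at 8 g/kg, against 102 and 88.3 FPKM at 0 g/kg, 104 and 79.0 at 0.4 g/kg, 85.5 and 121 at 0.8 g/kg, and 74.7 and 89.6 at 8 g/kg in total RNA. All 4 libraries at 0 and 0.4 g/kg were below both controls in RPF, whereas in total RNA the groups overlapped. The fitted change of -4.33 ± 1.82 in RPF depends on the pseudocount because of the library at 0. With 3 reads allowed for a count of 0, that library can hold up to 0.00373% of its reads from this gene.

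Ndufs8, Ndufa5 and Ndufa9 of the same submodule gave no such separation of 0 from 8 g/kg in RPF. Ndufs8, a further iron-sulfur subunit, had RPF values of 57.6 and 34.5 FPKM at 0 g/kg, 58.2 and 142 at 0.4 g/kg, 69.3 and 26.2 at 0.8 g/kg, and 87.6 and 12.8 at 8 g/kg, with the 2 controls at the top and the bottom of the range apart from 1 library at 0.4 g/kg. Ndufa5, an accessory subunit, had 25.4 and 50.6 FPKM at 0 g/kg, 40.0 and 86.5 at 0.4 g/kg, 21.8 and 19.2 at 0.8 g/kg, and 24.1 and 42.3 at 8 g/kg in RPF and 61.8 and 60.6 FPKM at 0 g/kg, 56.0 and 70.3 at 0.4 g/kg, 36.5 and 41.7 at 0.8 g/kg, and 56.0 and 59.2 at 8 g/kg in total RNA, lowest at 0.8 g/kg in both fractions. Ndufa9, which binds a nucleotide at the junction with the membrane arm, had 61.5 and 45.9 FPKM at 0 g/kg, 77.5 and 41.9 at 0.4 g/kg, 72.6 and 87.2 at 0.8 g/kg, and 58.4 and 94.0 at 8 g/kg in RPF and overlapped between 0 and 8 g/kg.

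Ndufs1, unlike Ndufs3 and Ndufs7, had its lowest RPF values at 8 g/kg. Its RPF values were 50.1 and 37.4 FPKM at 0 g/kg, 76.3 and 39.8 at 0.4 g/kg, 59.1 and 47.3 at 0.8 g/kg, and 15.8 and 23.2 at 8 g/kg, so that all 6 low-valine libraries lay above both controls. Its total RNA values were 44.7 and 27.2 FPKM at 0 g/kg, 36.5 and 43.5 at 0.4 g/kg, 37.8 and 46.9 at 0.8 g/kg, and 38.8 and 37.0 at 8 g/kg, with overlapping groups. The RPF changes at 0, 0.4 and 0.8 g/kg were 1.15 ± 0.49, 1.50 ± 0.49 and 1.44 ± 0.49, with adjusted p of 0.694, 0.665 and 0.869 (limma). The 3 changes share the same 2 control libraries, which held 2 and 5 reads of Ndufs1. Ndufv1, the flavin subunit and the deepest RPF member with 148 reads, had 73.5 and 66.6 FPKM at 0 g/kg, 114 and 82.1 at 0.4 g/kg, 146 and 106 at 0.8 g/kg, and 102 and 81.7 at 8 g/kg in RPF. It was lowest at 0 g/kg in both libraries. In total RNA Ndufv1 was 127 and 122 FPKM at 0 g/kg, 119 and 102 at 0.4 g/kg, 115 and 112 at 0.8 g/kg, and 137 and 138 at 8 g/kg, highest at 8 g/kg, and the changes at 0 against 8 g/kg were -0.38 ± 0.36 (RPF) and -0.14 ± 0.14 (total RNA).

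**Figure D4:**
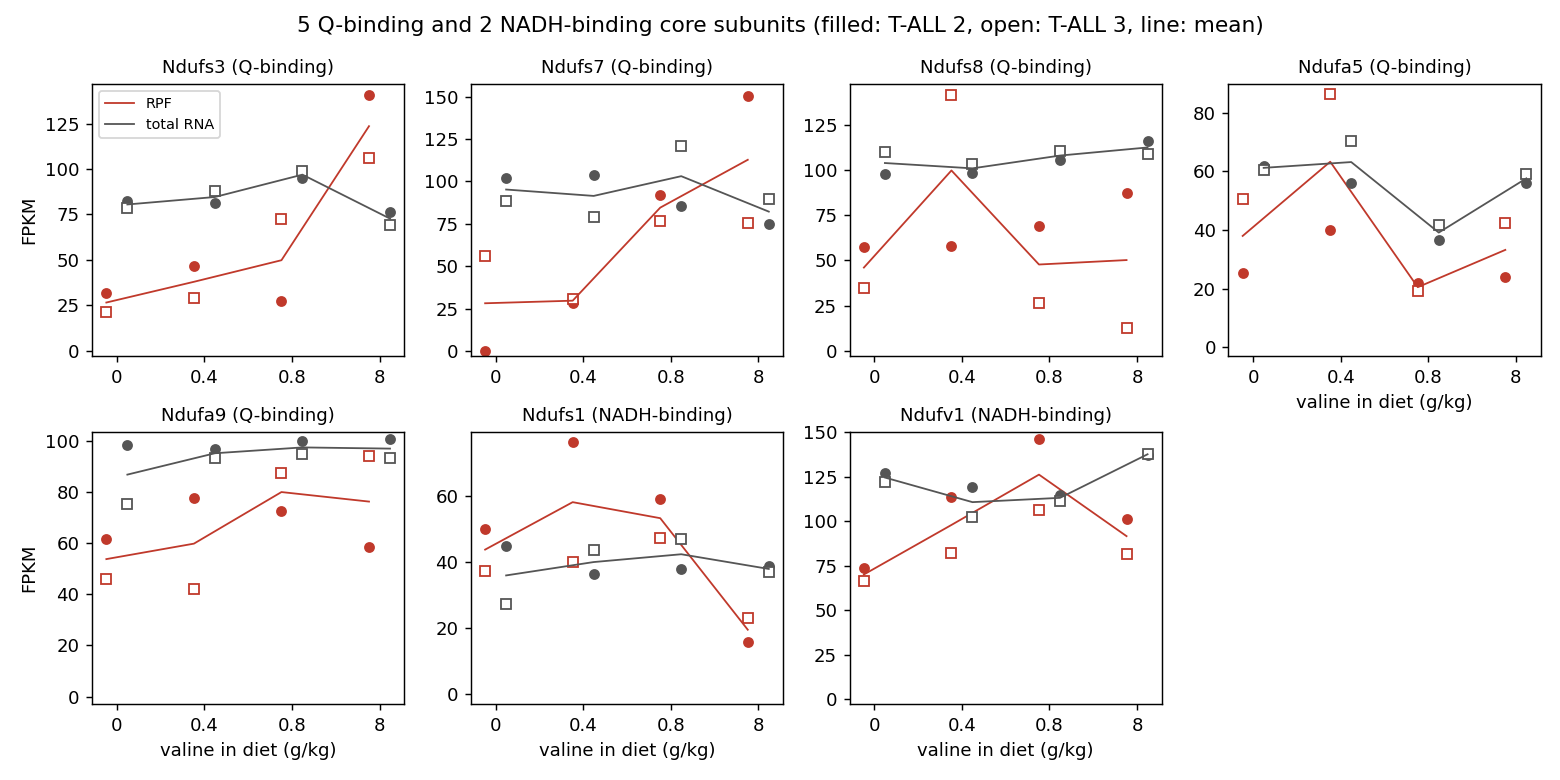
FPKM (vertical axis) by valine in the diet (horizontal axis) for 5 Q-binding subunits and for Ndufs1 and Ndufv1 in RPF (red) and total RNA (grey), with a point per library (filled for T-ALL 2, open for T-ALL 3) and a line through the means of 2. RPF of Ndufs3 and Ndufs7 is low at 0 g/kg while their total RNA at 0 g/kg is between 78.4 and 102 FPKM, and RPF of Ndufs1 is lowest at 8 g/kg.

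Ndufab1, the mitochondrial acyl carrier protein, had RPF values of 25.5 and 15.9 FPKM at 0 g/kg, 20.1 and 17.4 at 0.4 g/kg, 15.1 and 31.4 at 0.8 g/kg, and 6.06 and 10.6 at 8 g/kg. All low-valine libraries were above both controls, which held 1 and 3 reads. Its total RNA values were 23.5 and 24.9 FPKM at 0 g/kg, 28.5 and 28.6 at 0.4 g/kg, 18.7 and 15.7 at 0.8 g/kg, and 24.6 and 33.9 at 8 g/kg, lowest at 0.8 g/kg, and the RPF change at 0 g/kg was 1.27 ± 0.68 (adjusted p = 0.818, limma). Ndufa13 had 161 and 107 FPKM at 0 g/kg, 84.5 and 85.3 at 0.4 g/kg, 84.4 and 108 at 0.8 g/kg, and 102 and 79.4 at 8 g/kg in RPF and 85.7 and 101 FPKM at 0 g/kg, 83.0 and 82.5 at 0.4 g/kg, 88.6 and 78.3 at 0.8 g/kg, and 92.9 and 65.6 at 8 g/kg in total RNA. Its 0 g/kg libraries were above the controls in RPF, and the change was 0.54 ± 0.36. Other subunits lower in RPF without overlap at 0 g/kg were Ndufa12, Ndufv3 and Ndufa7 of the NADH-binding submodule and Ndufa10, Ndufb4, Ndufb7 and Ndufb11 of the membrane arm, with changes from -1.37 (Ndufb4) to -0.65 (Ndufb11). Ndufb3 shows how thin the RPF counts are: at 0 g/kg it was read 17 times in T-ALL 2 and 0 times in T-ALL 3.

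At the intermediate doses the median change of the subunits in RPF lay nearer to that of all genes, a difference that was not tested. At 0.4 against 8 g/kg, 0 of 36 subunits passed (0.0% of all genes), 21 were lower (44.0% of all genes) and 15 higher, and the median was -0.14 against 0.08 for all genes (-0.0328 without the T-ALL 3 control, -0.34 without the T-ALL 2 control). An unadjusted p under 0.05 was reached by Ndufb11, Ndufs3 and Ndufb4, all lower (2.49%), and by Ndufs1 (4.18%), and 7 subunits were lower without overlap (12.7%) and 4 higher (15.9%). At 0.8 against 8 g/kg, 0 passed (0.0%), 17 were lower (36.7% of all genes) and 19 higher, with a median of 0.05 against 0.30 for all genes, which turned to -0.21 without the T-ALL 2 control and -0.13 without the T-ALL 3 control. Ndufs3 was lower (0.854%) and Ndufs1 higher (4.72%) at an unadjusted p under 0.05, and 9 subunits were lower without overlap (9.82%) and 8 higher (21.5%). All 3 comparisons use the same control libraries, so they are not independent.

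Against the mean of the other 3 diets, a contrast that does not rest on the control libraries alone, 0 of 36 subunits passed in RPF (0.0%), 25 were lower (47.0% of all genes) and the median was -0.21 (all genes 0.07), or -0.41 without T-ALL 2 and -0.13 without T-ALL 3 at 0 g/kg. None was higher at an unadjusted p under 0.05 (2.37%), and none was above all others without overlap (3.73%). An unadjusted p under 0.05 was reached by 4 subunits, all lower (2.61%), among them Ndufs3, Ndufs7 and Ndufb9. Ndufb9 had 68.2 and 51.0 FPKM at 0 g/kg, 172 and 116 at 0.4 g/kg, 95.2 and 142 at 0.8 g/kg, and 64.8 and 133 at 8 g/kg in RPF and a change of -0.96 ± 0.38 (adjusted p = 0.925, limma). Its 0 g/kg libraries overlapped with 1 control library. With both 0 g/kg libraries lower than all 6 others were 2 subunits (2.79% of genes), among them Ndufv1. Ndufs5 was among the higher ones in this contrast and had 16.3 and 65.1 FPKM at 0 g/kg, 0 and 22.3 at 0.4 g/kg, 49.1 and 12.3 at 0.8 g/kg, and 0 and 109 at 8 g/kg, with a library at 0 in each of the 0.4 and 8 g/kg groups, and its sign turned when the libraries were thinned to equal depth. The test of any difference among the 4 diets called 0 subunits (0.0%), and Ndufb11 and Ndufs3 had an unadjusted p under 0.05 (4.97%).

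**Figure D5:**
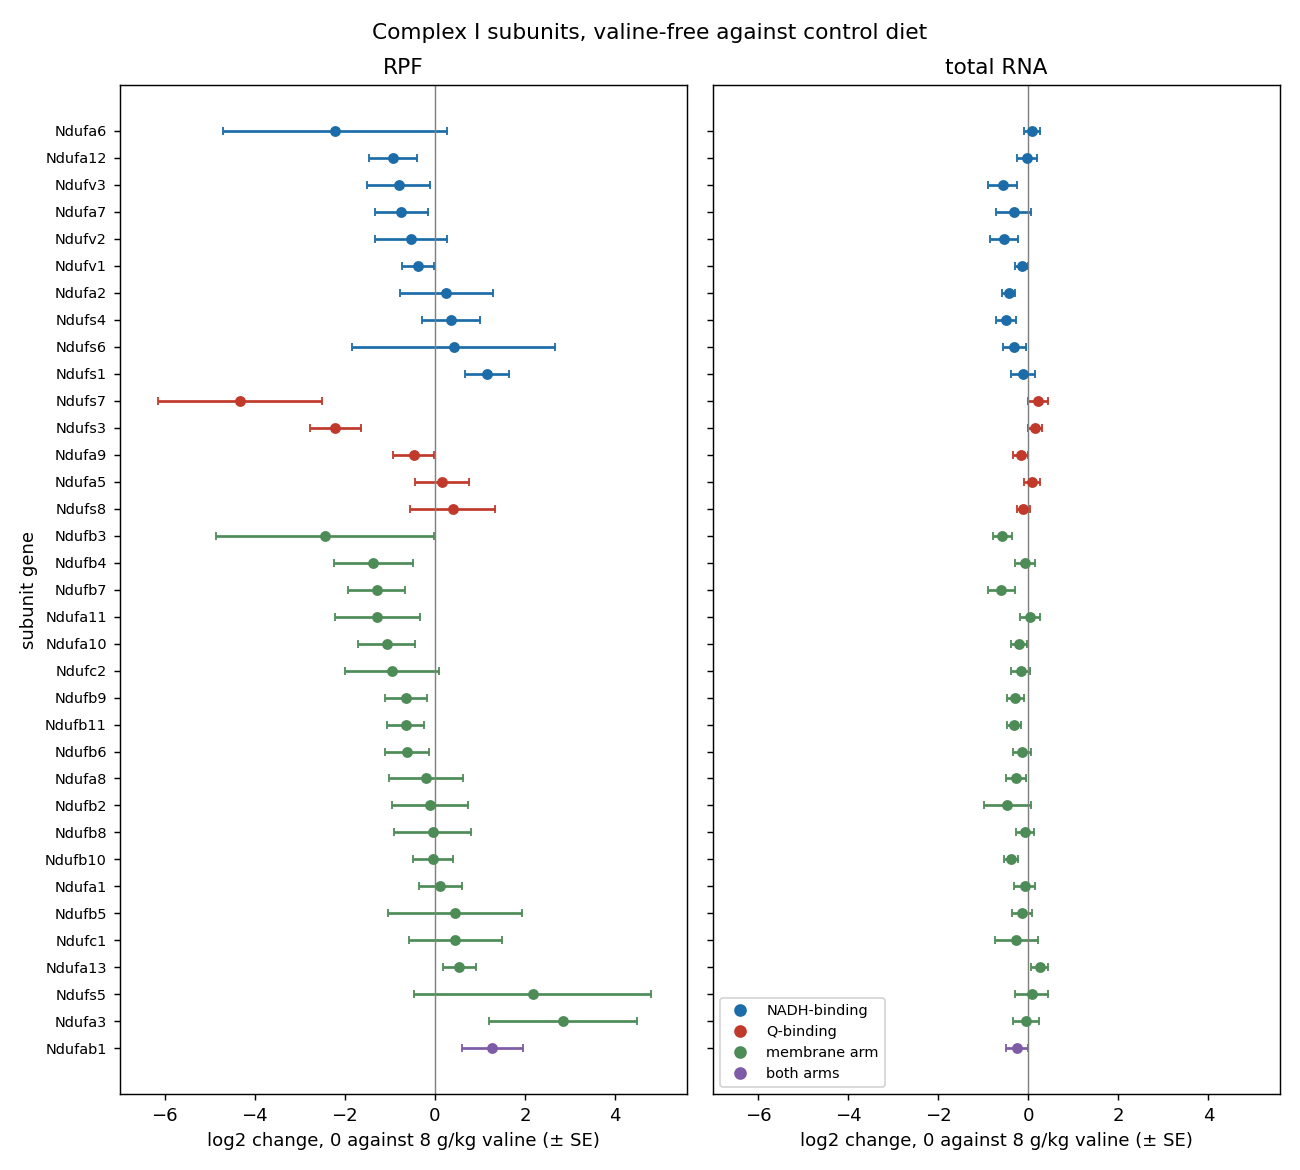
Change at 0 against 8 g/kg valine on the log2 scale (horizontal axis, ± SE) of 35 subunits in RPF (left) and total RNA (right), grouped and coloured by submodule. In RPF Ndufs7 and Ndufs3 lie lowest among the Q-binding subunits shown, while in total RNA the changes lie between -0.60 and 0.25.

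Total RNA of the subunits was mostly a little lower at 0 g/kg. At 0 against 8 g/kg, 0 of 36 passed the limma test (0.0%), and 29 were lower and 7 higher, against 54.0% of all genes lower. The median was -0.16, while that of all genes was -0.04, and it was -0.24 without T-ALL 2 and -0.10 without T-ALL 3 at 0 g/kg. With voom 3 genes passed here, 24 against the other diets and 1 in the test of any difference, none of them a subunit. The medians were -0.32 for the NADH-binding members (9 of 10 lower), -0.01 for the Q-binding members (3 of 6 lower) and -0.17 for the membrane arm (16 of 19 lower). An unadjusted p under 0.05 was reached by Ndufa2, Ndufb3 and Ndufb10, all lower (4.02%), and by none higher (2.57%). Without overlap, 13 were lower (20.3%), and Ndufs3 and Ndufa5 were higher (16.1%).

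Ndufa2 had 194 and 164 FPKM at 0 g/kg, 195 and 179 at 0.4 g/kg, 192 and 170.1 at 0.8 g/kg, and 231 and 254 at 8 g/kg in total RNA. Both controls were above all 6 low-valine libraries, and the changes were -0.44 ± 0.15, -0.37 ± 0.15 and -0.42 ± 0.15 at 0, 0.4 and 0.8 g/kg (adjusted p = 0.641, 1 and 1, limma). In RPF Ndufa2 had 233 and 19.3 FPKM at 0 g/kg, 49.0 and 53.0 at 0.4 g/kg, 100.02 and 161 at 0.8 g/kg, and 36.9 and 86.3 at 8 g/kg, with no order by diet. Ndufb3, a membrane-arm subunit, had 50.6 and 47.4 FPKM at 0 g/kg, 96.4 and 86.4 at 0.4 g/kg, 69.8 and 95.7 at 0.8 g/kg, and 63.0 and 84.9 at 8 g/kg in total RNA. Its 0 g/kg libraries were the 2 lowest, and the change was -0.57 ± 0.21 against 8 g/kg and -0.73 ± 0.17 against the other 3 diets (adjusted p = 0.272, limma), the smallest adjusted p of a subunit in any comparison of diets.

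Against the other 3 diets, 29 subunits were lower in total RNA with a median of -0.17 (all genes -0.02), and 0 passed (0.0%). That median was -0.25 without T-ALL 2 at 0 g/kg and -0.0536 without T-ALL 3 at 0 g/kg. The 4 with an unadjusted p under 0.05 (4.70%), Ndufb3, Ndufa8, Ndufb10 and Ndufs4, were also the 4 with both 0 g/kg libraries below all others (5.46%). Ndufa8, which faces the intermembrane space, had 52.0 and 53.2 FPKM at 0 g/kg, 80.7 and 93.5 at 0.4 g/kg, 82.5 and 106 at 0.8 g/kg, and 53.8 and 75.2 at 8 g/kg and a change of -0.60 ± 0.17. Ndufb10 had 119 and 109.8 FPKM at 0 g/kg, 153 and 153 at 0.4 g/kg, 138 and 168 at 0.8 g/kg, and 144 and 155 at 8 g/kg and -0.41 ± 0.12. Ndufs4, an NADH-binding subunit whose loss is a classic cause of Leigh syndrome, had 35.2 and 29.9 FPKM at 0 g/kg, 49.9 and 43.9 at 0.4 g/kg, 44.0 and 55.5 at 0.8 g/kg, and 39.9 and 53.2 at 8 g/kg and -0.54 ± 0.18. In RPF Ndufs4 had 50.7 and 21.6 FPKM at 0 g/kg, 50.2 and 19.7 at 0.4 g/kg, 31.1 and 21.9 at 0.8 g/kg, and 27.5 and 24.1 at 8 g/kg, and Ndufa8 had 25.8 and 103 FPKM at 0 g/kg, 48.8 and 17.6 at 0.4 g/kg, 16.6 and 39.0 at 0.8 g/kg, and 49.0 and 71.7 at 8 g/kg, so neither was lowest at 0 g/kg in that fraction.

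Ndufa11, a membrane-arm subunit, had 23.8 and 27.2 FPKM at 0 g/kg, 17.3 and 18.2 at 0.4 g/kg, 17.3 and 15.999 at 0.8 g/kg, and 24.3 and 25.3 at 8 g/kg in total RNA. Its 0 and 8 g/kg libraries were alike and the intermediate doses lower, with a change of 0.38 ± 0.18 for 0 g/kg against the other diets. In RPF it rested on 1 to 12 reads per library. At 0.8 against 8 g/kg, 0 subunits passed in total RNA (0.0%), and at an unadjusted p under 0.05 Ndufab1, Ndufa5, Ndufa2 and Ndufa11 were lower (2.14%) and Ndufs3, Ndufa8 and Ndufa1 higher (1.31%). At 0.4 against 8 g/kg, 0 passed (0.0%), 16 were lower (50.8%), and at an unadjusted p under 0.05 Ndufa6 was higher (1.59%) and Ndufa2 lower (1.5%). The test of any difference called 0 in total RNA (0.0%), with 6 at an unadjusted p under 0.05 (4.76%).

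TE at 0 against 8 g/kg divided the subunits evenly, 18 lower (42.5% of all genes) and 18 higher, with a median of -0.12 (all genes 0.20) that turned to 0.0692 without T-ALL 3 at 8 g/kg and 0.0446 without T-ALL 3 at 0 g/kg. None of 36 passed, whereas 4 of 9361 genes did (0.0427%). Among those lower at an unadjusted p under 0.05 (1.83%) were Ndufs3 and Ndufs7, and 9 were lower without overlap (12.5%) and 3 higher (19.8%). The Q-binding median was -0.77, against -0.12 for the NADH-binding members and 0.02 for the membrane arm. At 0.4 against 8 g/kg 0 subunits passed (0.0%) and Ndufs3 had -1.94 ± 0.57. At 0.8 against 8 g/kg 0 passed while 1 gene did (0.0107%), and Ndufs3 had -1.86 ± 0.57 (limma, not past the test). Against the other diets 0 passed (0.0%), and Ndufs7 and Ndufs3 were among those lower at an unadjusted p under 0.05 (2.21%). Among the higher ones, Ndufs4 (0.80 ± 0.54) and Ndufa8 (1.14 ± 0.64) had the smallest p. Leaving out 1 library made a call in 3 TE comparisons: Ndufa3 passed at 0 and at 0.8 g/kg without the T-ALL 3 control (5.87 and 6.42, adjusted p = 0.0464 and 0.0358), against a T-ALL 2 control with 0 reads, and Ndufs7 passed against the other diets without T-ALL 3 at 0 g/kg (-7.18, adjusted p = 0.0473), on a library with 0 reads. The test of any difference among diets called 0 subunits in TE (0.0%), with Ndufs3 and Ndufb11 at an unadjusted p under 0.05 (4.66%).

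The subunits encoded by mitochondrial DNA, which assemble with the members in the membrane arm, were mostly higher at 0 g/kg in total RNA. At 0 against 8 g/kg 1 of 7 was lower in that fraction (54.0% of all genes) and 6 were higher, with a median of 0.38 (all genes -0.04). An unadjusted p under 0.05 was reached by 4, all higher (2.57%), among them mt-Nd3 (0.81 ± 0.16) and mt-Nd4l (0.66 ± 0.12). None passed the adjusted test (0.0% of all genes). In RPF 2 of 7 were lower (43.2% of all genes) and 5 higher, with a median of 0.79 (all genes 0.12). Their RPF was far below total RNA over all diets, with a median of -2.73 relative to the median gene and 5 of 7 past the test, all lower (6.22% of all genes). Whether footprints of these mRNAs were recovered as well as those of the nuclear subunits was not tested. Assembly factors build the complex without staying in it, and 15 were in the table. In total RNA 10 of them were lower (54.0% of all genes) and 5 higher at 0 against 8 g/kg, with a median of -0.08 (all genes -0.04). Of 13 assembly factors tested in RPF, 5 were lower (43.2% of all genes) and 8 higher, with a median of 0.21 (all genes 0.12). No assembly factor passed the test in either fraction (0.0% of all genes). Ndufaf1, with 3.37 ± 1.46 in RPF, had the smallest unadjusted p of these.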

How the data were processed

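The data are 1 table of FPKM values per gene, deposited by the authors, with a column for each of the 16 libraries. Tools in the submitters' processing notes are STAR 2.5.0c, Bowtie2 2.3.4, edgeR 3.14.0 and cutadapt 1.18, with the builds mm10 and GRCm38. Their roles, the FPKM formula and the gene lengths were not stated in what was used. The 36 members and all gene lists were chosen with earlier results of these data known. Reads were recovered from the smallest steps between FPKM values, and 100.0% of the 149988 nonzero values came out whole to within 0.02 reads. A gene with reads in only 1 library comes out whole by construction. Where all counts of a gene share a common factor, its recovered reads are too low. Tests were two-sided with limma 3.58.1 (R 4.3.3) on log2(FPKM + 0.5), which understates changes of genes with FPKM near the pseudocount. A library at 0 reads can instead give a large log2 value. For RPF against total RNA, Ndufa6 had -3.23 in this fit and -2.43 with voom. Only genes whose mean reached 1 FPKM were tested, all 4 diets shared 1 estimate of the spread, and Benjamini-Hochberg adjustment ran over all genes tested. TE paired each RPF library with the total RNA library of its diet and number. Intervals and floors (3 reads) cover counting error only. Values in every library are given for genes past a test, the 2 per direction with the smallest p at 0 g/kg against 8 g/kg or the other diets, the 3 highest and 3 lowest in RPF against total RNA, and Ndufv1 and Ndufs1. The values of 1 member are not reported here; it stays in the counts and sums over members. The code was tested on simulated data. Alternatives were pseudocounts, filters, centring, equal depth, voom on recovered reads, an interaction fit, the replicate block and leaving out each library.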

Additional observations from a re-analysis of the deposited data

How the results depend on the processing

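No subunit passed in any comparison of diets under the alternatives that keep all libraries. The median change of the subunits moved with the scale. For RPF it was -0.58 (centred) and -0.67 (equal depth) at 0 against 8 g/kg, -0.24 (voom) and -0.36 (equal depth) at 0.4, -0.11 (voom) and -0.13 (centred) at 0.8, and -0.13 (voom), -0.29 (centred) and -0.37 (equal depth) at 0 against the other diets. For TE it was -0.19 (voom), -0.27 (centred) and -0.29 (equal depth) at 0, -0.49 (equal depth) at 0.4, -0.13 (voom), -0.24 (centred) and -0.19 (equal depth) at 0.8, and 0.11 (equal depth) against the other diets. In RPF against total RNA, 10 subunits passed with a pseudocount of 2, 14 with voom and 16 without centring, where the median was -0.84. These counts come without the share of all genes called in the same setting, so they do not set the subunits apart. Signs turned at equal depth for Ndufs5 (RPF, 0 against the other diets, -0.60), Ndufb3 and Ndufv1 (total RNA, 0 against 8 g/kg, 0.00922 and 0.0436) and Ndufs4 (TE, 0 against the other diets, -1.84). The cause was not tested.

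Leaving out 1 library at a time gave RPF medians of -0.66 to -0.13 (0 against 8 g/kg; -0.13 without T-ALL 3 at 8 g/kg), -0.34 to -0.0328 (0.4), -0.21 to 0.14 (0.8) and -0.41 to -0.13 (0 against the other diets). TE medians were -0.37 to 0.0692 (0 against 8 g/kg), -0.37 to -0.0572 (0.4), -0.17 to 0.14 (0.8) and -0.15 to 0.01 (0 against the other diets), with 0 to 1 subunits past the test at 0, at 0.8 and against the other diets. Total RNA medians were -0.24 to -0.10 (0 against 8 g/kg), -0.00341 to 0.0423 (0.4), -0.0462 to -0.00216 (0.8) and -0.25 to -0.0536 (0 against the other diets). In RPF against total RNA 2 to 7 passed, and the median was -0.34 to -0.0926. Ndufs1 in total RNA ranged from -0.47 to 0.24 at 0 against 8 g/kg, the highest without T-ALL 3 at 0 g/kg. The Q-binding share at 0 g/kg was 39.0% to 56.3% of the control in RPF and 99.8% to 103% in total RNA.

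With the T-ALL number as a replicate block, 5 subunits passed in RPF against total RNA and 0 in the diet comparisons, the same counts as without it. Deviations of libraries with the same number correlated at -0.02 to 0.07 in RPF and -0.04 to 0.25 in total RNA, so the number was not used as a pairing of diets. The median subunit had 2 to 11.5 reads in an RPF library, which limits the single-gene values.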

Other observations

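The nuclear subunits of the other respiratory complexes were set beside complex I at 0 against 8 g/kg. Of all genes tested, 43.2% were lower in RPF (median 0.12) and 54.0% in total RNA (median -0.04). Of 15 subunits of complex V, the ATP synthase, 13 were lower in RPF (median -0.40) and 13 in total RNA (median -0.18). Of 12 subunits of complex IV, cytochrome c oxidase, 9 were lower in RPF (median -0.48) and 11 in total RNA (median -0.35). Of 9 subunits of complex III, 8 were lower in each fraction (medians -0.19 and -0.18), and of 4 subunits of complex II, succinate dehydrogenase, 2 were lower in RPF (median -0.06) and 3 in total RNA (median -0.10). None passed the limma test in either fraction, where 0 of 9718 genes passed in RPF and 0 of 10054 in total RNA. Against these, the complex I subunits had medians of -0.43 in RPF and -0.16 in total RNA, and a difference between the complexes was not tested.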
